A study of Mus musculus with 6 samples.

Results

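The genes that copy DNA methylation at replication and those that take it away were followed in AML-12 cells, a mouse hepatocyte line, with and without silencing of manganese superoxide dismutase (MnSOD, gene Sod2), the mitochondrial enzyme that turns superoxide into hydrogen peroxide. The set holds 9 genes, Uhrf1, Uhrf2, Dnmt1, Dnmt3a, Dnmt3b, Hells, Tet1, Tet2 and Tet3, out of 19938 genes measured under a single symbol. They were chosen by their role and symbol, with earlier results of these arrays in view, in which Uhrf1 stood among the genes of largest rise. The fitted values below are therefore a description and no evidence about the set as a set. Where a gene had several probe sets, the probe set was selected on its mean brightness over all 6 arrays, which does not use the groups.

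The siMnSOD group consisted of 3 arrays of AML-12 cells stably carrying a retroviral (pSUPER.retro.puro) hairpin against MnSOD, designed for a mild degree of silencing. The siScramble group consisted of 3 arrays of cells carrying the same vector with a hairpin that matches no gene. All cells were WT-AML-12 before infection, all were selected with puromycin and none had a further treatment, so no array stands for uninfected cells. The 3 samples of a group came from different frozen batches of cells, and the labels do not say whether each batch was its own infection or whether the selected cells were clones. The p-values thus measure the spread between these samples.

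DNA methylation is lost by dilution unless it is copied onto the new strand at every replication. UHRF1 binds hemimethylated DNA behind the fork and, by ubiquitylating histones and the clamp-bound protein PCLAF, brings in DNMT1, which methylates the new strand. DNMT3A and DNMT3B set new marks, HELLS remodels nucleosomes so that DNA can be methylated, and the TET enzymes oxidize methylcytosine, which leads to its removal. UHRF1 and DNMT1 are most abundant in dividing cells, and adult hepatocytes, most of which rest, hold little of either.

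Both maintenance genes were higher with MnSOD silenced, and the setting and removing enzymes were not called. Uhrf1 was 7.66-fold and Dnmt1 3.59-fold higher in siMnSOD than in siScramble cells, and these were the 2 of 9 genes called higher (22.2%) at an adjusted p under 0.05 in limma over all genes, against 2.17% of all 19938 genes. None of the 9 was called lower (1 at an unadjusted p under 0.05), against 1.58% of all genes. The other 7 genes, including Uhrf2, the paralogue of Uhrf1, all 3 TET genes and the de novo methyltransferases, did not pass the threshold.

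The RefSeq start sites of these genes (table of assembly GRCm38.p6, 250 bases before to 50 after each start, all 9 genes matched by symbol, 14 windows) were searched on both strands for E2F words, the site of the factors that drive genes at entry into S phase. The words searched were TTTCCCGC, TTTGGCGC, TTTCGCGC and TTTGCCGC. Uhrf1, Dnmt1 and Hells each held a word in 1 window. The other 6 genes had none in their 8 windows, which says only that these letters were absent there. A word was held by 2.26% of all 32851 windows and by 2.6% of 27025 gene symbols. The windows of the 3 genes are shown with the words in capitals, and that of Uhrf2 is shown beside them as the paralogue whose difference was not called. No word overlapped another in these windows.

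Uhrf1, chr17:56304063-56304362, plus strand: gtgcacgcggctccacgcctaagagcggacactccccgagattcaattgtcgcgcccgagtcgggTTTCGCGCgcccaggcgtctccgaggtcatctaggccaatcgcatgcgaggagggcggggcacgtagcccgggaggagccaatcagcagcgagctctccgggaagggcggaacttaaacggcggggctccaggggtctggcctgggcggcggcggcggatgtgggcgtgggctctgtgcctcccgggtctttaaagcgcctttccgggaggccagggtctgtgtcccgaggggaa

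Dnmt1, chr9:20952574-20952873, minus strand: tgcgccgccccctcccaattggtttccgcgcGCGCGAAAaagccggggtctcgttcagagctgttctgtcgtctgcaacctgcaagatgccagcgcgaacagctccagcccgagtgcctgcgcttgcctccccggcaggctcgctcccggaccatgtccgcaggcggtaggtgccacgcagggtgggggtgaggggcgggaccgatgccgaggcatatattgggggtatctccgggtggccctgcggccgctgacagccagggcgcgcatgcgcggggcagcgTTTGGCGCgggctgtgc

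Hells, chr19:38930740-38931039, plus strand: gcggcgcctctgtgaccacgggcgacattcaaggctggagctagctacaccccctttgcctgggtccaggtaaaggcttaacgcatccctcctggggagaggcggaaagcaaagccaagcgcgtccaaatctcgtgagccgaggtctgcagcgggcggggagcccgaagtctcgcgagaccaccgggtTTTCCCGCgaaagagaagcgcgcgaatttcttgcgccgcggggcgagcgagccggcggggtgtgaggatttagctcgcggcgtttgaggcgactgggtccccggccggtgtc

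Uhrf2, chr19:30030263-30030562, plus strand: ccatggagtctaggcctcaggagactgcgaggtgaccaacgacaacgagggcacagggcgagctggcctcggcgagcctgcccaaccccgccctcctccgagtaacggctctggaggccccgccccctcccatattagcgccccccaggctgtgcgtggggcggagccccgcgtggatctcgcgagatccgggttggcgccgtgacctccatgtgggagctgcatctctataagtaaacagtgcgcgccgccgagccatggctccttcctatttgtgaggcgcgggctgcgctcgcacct

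The Uhrf1 word began 185 bases before the start site. Dnmt1 held a word on the reverse strand that began 219 bases before the start and a forward word 33 bases after it. The Hells word began 62 bases before the start. The 4 windows were rich in CpG, the substrate of these enzymes, with 33 sites in those of Uhrf1 and Dnmt1, 34 in that of Hells and 28 in that of Uhrf2, against a median of 7 and an upper quartile of 20 over all windows. Those of Uhrf1, Dnmt1 and Hells were shown for their words, and each word itself holds a CpG. The windows not shown had 12 sites in Uhrf1 and 2 and 12 in Dnmt1. Windows of genes without a word ranged from 17 (Tet1) to 57 (Tet2). The deposited values measure RNA, and the methylation of these or other sites was not analysed here.

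Before the members, the series as a whole was checked. Values are log2 of the authors' normalized intensity, in which 1 unit is a 2-fold change, and errors are SDs over 3 arrays unless given as SE. Median intensity over all probe sets was 26.8 to 31.0 in siMnSOD and 28.1 to 33.6 in siScramble arrays. Replicate 3 stood apart in both groups, with a Pearson r over all probe sets of 0.9843 and 0.9847 against siMnSOD replicates 1 and 2, and of 0.9762 and 0.9763 against siScramble replicates 1 and 2, whereas replicates 1 and 2 correlated at 0.9921 in siMnSOD and 0.9934 in siScramble. Sod2 itself read 6.63, 6.92 and 5.71 in siMnSOD replicates 1, 2 and 3, against 7.95, 7.99 and 8.20 in siScramble. Every siMnSOD array was lower, replicate 3 the most. The means were 6.42 ± 0.63 in siMnSOD and 8.05 ± 0.13 in siScramble (n = 3 each), a level of 0.324 times the control (adjusted p = 0.037 in limma), and this call was lost without any 1 of replicates 1 and 2 of either group (highest adjusted p 0.13). An exact two-sided permutation test gave p = 0.1, the smallest that 3 against 3 arrays allow. Background was set at 4.28, below which lay the means of 95% of 1015 olfactory receptor genes. Of 9 hepatocyte markers, Krt8, Krt18, Apob, Trf, Cdh1, Hnf4a and Apoa1 were above it, but Alb and Ttr, which define mature hepatocytes, were below it in both groups. Of the markers of other cells, 4 of 8 for leukocytes, 5 of 6 for endothelium, 3 of 7 for stellate cells and fibroblasts and 1 of 4 for biliary cells lay below it in both groups. The summed intensity of the 4 biliary markers was 3894 to 4180 in siMnSOD and 1904 to 3292 in siScramble arrays. That of the 9 hepatocyte markers was 16720 to 18850 in siMnSOD and 12070 to 16050 in siScramble arrays, most of it from Krt8 (0.59) and Krt18 (0.13). Hnf4a was called higher (1.09) and the other 8 hepatocyte markers were not called. The biliary markers went in both directions. Sox9 was called lower (−0.86), whereas Krt7 (1.15) and Krt19 (0.70) were higher on every siMnSOD array but not called, and Epcam lay below background. Both sums moved with the groups, and their part in the results was not tested. In RNA of whole cultures a larger share of cells with a transcript and more transcript per cell cannot be told apart.

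Uhrf1, the reader of hemimethylated DNA, had the largest difference of the 9 genes. Its level was 9.82, 9.88 and 9.61 in siMnSOD replicates 1, 2 and 3, against 7.14, 7.12 and 6.24 in siScramble. Every siMnSOD array lay more than 2 units above every siScramble array, and siScramble replicate 3 was the lowest of all. The log2 difference was 2.94 (SE 0.25, 95% interval 2.34 to 3.53, adjusted p = 0.004 in limma), and it kept the call whichever array was left out (highest adjusted p 0.038). Within replicate numbers 1, 2 and 3 the difference was 2.68, 2.77 and 3.37.

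Dnmt1, the maintenance methyltransferase, differed by less but with the narrower spread. It read 9.73, 9.77 and 9.85 in siMnSOD, against 7.96, 8.01 and 7.85 in siScramble. The arrays of each group lay within 0.2 units of each other, and the groups were far apart. The log2 difference was 1.84 (SE 0.10, 95% interval 1.60 to 2.09, adjusted p = 0.0012 in limma), and leaving out any 1 array gave adjusted p-values between 0.00082 and 0.021. It was 1.77, 1.76 and 2.00 within the replicate numbers. The intervals of Uhrf1 and Dnmt1 did not overlap.

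Hells, the remodeller, did not follow them on every array. It read 10.56, 9.40 and 10.32 in siMnSOD, against 9.48, 9.60 and 8.73 in siScramble. In siMnSOD replicate 2 it was below siScramble replicates 1 and 2, so the groups overlapped. The log2 difference of 0.82 (SE 0.35, 95% interval −0.01 to 1.66) had an adjusted p of 0.32 in limma. By replicate number the differences were 1.08, −0.20 and 1.59. Without siMnSOD replicate 2 the difference was 1.17, with an adjusted p of 0.2, and without siScramble replicate 3 it was 0.56, with an adjusted p of 0.43.

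**Figure D1:**
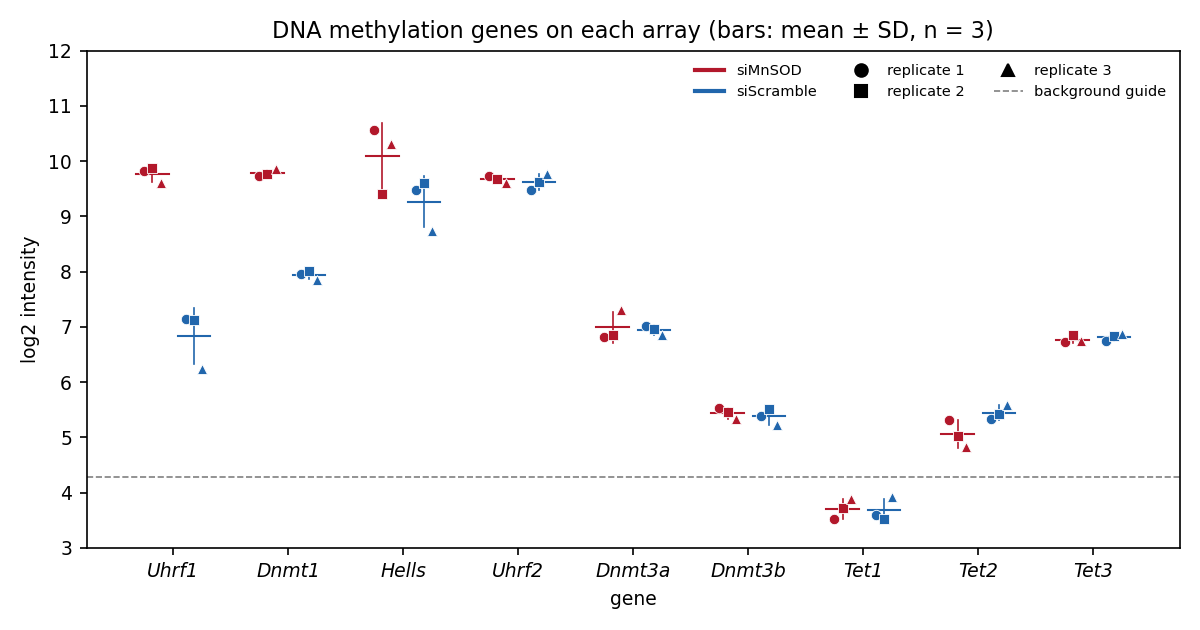
Log2 intensity of the 9 genes (y axis) on each array, siMnSOD in red and siScramble in blue, with the replicate number given by the marker and the mean ± SD (n = 3) by the bars. The groups lie apart for Uhrf1 and Dnmt1 and overlap for Hells, and Tet1 sits under the background guide of 4.28 (dashed).

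Uhrf2, a close relative of Uhrf1 with a similar set of domains that does not replace it in maintenance in mouse cells, was expressed at a level well above background in both groups. It read 9.74, 9.68 and 9.60 in siMnSOD, against 9.48, 9.63 and 9.76 in siScramble. The groups overlapped, and the log2 difference was 0.05 (SE 0.11, 95% interval −0.22 to 0.32, or 0.858- to 1.25-fold). The change of Uhrf1 exceeded that of Uhrf2 by 2.41, 2.72 and 3.53 within replicate numbers 1, 2 and 3, and by 2.89 in the group means. With Uhrf1 minus Uhrf2 taken per array, the exact permutation test (two-sided) gave p = 0.1, the smallest possible. The rise of Uhrf1 was known when the genes were chosen, so this p is a description and no evidence.

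The de novo methyltransferase genes showed no called difference. Dnmt3a read 6.81, 6.86 and 7.31 in siMnSOD, against 7.02, 6.97 and 6.85 in siScramble. Replicate 3 was the highest siMnSOD array and the lowest siScramble array, so the sign of the difference was not the same in all replicates (−0.22, −0.10 and 0.46). The log2 difference was 0.05 (SE 0.16, 95% interval −0.33 to 0.42). Dnmt3b was dimmer, at 5.53, 5.46 and 5.33 in siMnSOD against 5.38, 5.52 and 5.23 in siScramble. Its groups overlapped as well, with a log2 difference of 0.06 (SE 0.12, 95% interval −0.22 to 0.35). The change of Dnmt1 exceeded that of Dnmt3a by 1.80 and that of Dnmt3b by 1.78 in the group means, and by at least 1.55 within every replicate number (exact two-sided permutation p = 0.1 for each, the smallest possible). The genes were chosen with earlier results of these arrays in view, so these p-values too are only a description.

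The TET dioxygenase genes, which open the way to removal of the mark, were also not called. Tet2 read 5.32, 5.02 and 4.83 in siMnSOD, against 5.33, 5.42 and 5.59 in siScramble. Every siMnSOD array was below every siScramble array, though replicate 1 was level between the groups (difference −0.00), with −0.40 and −0.76 in replicates 2 and 3. The log2 difference was −0.39 (SE 0.15, 95% interval −0.75 to −0.02), with an unadjusted p of 0.04 and an adjusted p of 0.27 in limma. Such a separation was common, since 9.73% of all genes had every siMnSOD array below every siScramble array, and 11.1% had every siMnSOD array above. Among the 9 genes it was found for Tet2 downwards and for Uhrf1 and Dnmt1 upwards.

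Tet3 read 6.72, 6.86 and 6.75 in siMnSOD, against 6.75, 6.84 and 6.88 in siScramble, with a log2 difference of −0.05 (SE 0.10, 95% interval −0.29 to 0.19). Its second probe set averaged 6.52 in siMnSOD and 6.61 in siScramble. Tet1 read 3.52, 3.73 and 3.88 in siMnSOD, against 3.60, 3.53 and 3.92 in siScramble. All 3 of its probe sets lay below the background guide of 4.28 on every array (3.16 to 3.92), and no change could be measured there.

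**Figure D2:**
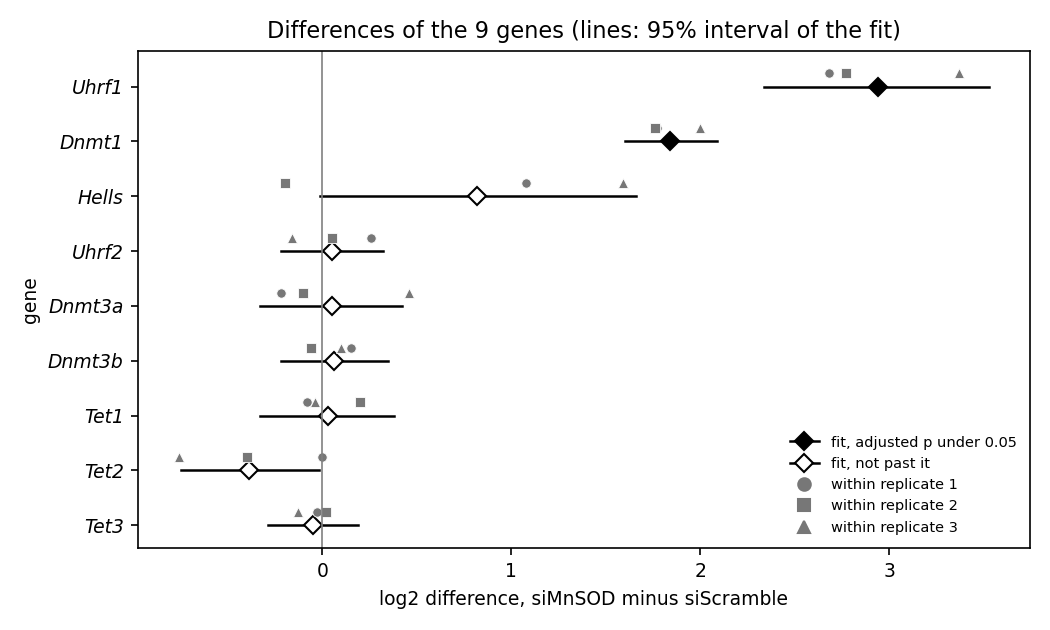
Log2 difference of siMnSOD minus siScramble (x axis) for the 9 genes, with the fitted value (diamond, filled where the adjusted p was under 0.05), its 95% interval (line) and the difference within each replicate number (grey markers). Uhrf1 (2.94) and Dnmt1 (1.84) are positive in every replicate, Hells has replicate 2 at −0.20, and the others lie around 0 except Tet2 (−0.39).

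Genes of S phase were higher on the same arrays. Of 19 such genes 18 were called higher (94.7%, beside 2.17% of all genes) and none lower (none at an unadjusted p under 0.05 in limma). The median log2 difference was 1.71 beside 0.01 over all genes. All 19 had every siMnSOD array above every siScramble array, as had 11.1% of all genes. They included the cyclin gene Ccne1 (2.34, SE 0.12) and the helicase subunits Mcm6 (2.49, SE 0.14), Mcm2 (1.71, SE 0.10) and Mcm7 (1.22, SE 0.10). The polymerase gene Pola1 (1.19, adjusted p = 0.1 in limma) was not called in the main fit. It was called with the replicate block (adjusted p = 0.043) and with array weights (0.0028). The same held without siScramble replicate 3 (0.038) and in replicates 1 and 2 alone (0.02). The differences of Uhrf1 and Dnmt1 (2.94 and 1.84) compare with a range of 0.99 to 2.76 over the list, and that of Hells (0.82) lay below it. The count of S phase genes called higher was 9 without siMnSOD replicate 1 and also 9 without siMnSOD replicate 2. Higher calls over all 19938 genes fell there too, from 432 to 100 and to 52. An E2F word was held by 7 of the 15 S phase genes with a RefSeq window (46.7%), by 4 of 17 maintenance partners (23.5%), by 2 of 11 imprinted genes (18.2%) and by 2 of 19 silenced germline genes (10.5%). It was held by none of the 13 methyl donor genes, the 15 genes of oxidized cytosine removal and the 5 genes of the reader list with a window. The imprinted and germline lists had no called gene, and the donor list had 2. Whether the words bear on the calls was not tested. How far the share of cells in S phase bears on the levels of Uhrf1 and Dnmt1 was not tested.

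Replicate 3 was set against the mean of replicates 1 and 2 of its own group. In siMnSOD this gave −0.24 for Uhrf1, 0.34 for Hells, 0.10 for Dnmt1, a median of −0.07 over the 19 S phase genes and of 0.08 over all genes. In siScramble it gave −0.88 for Uhrf1, −0.81 for Hells, −0.14 for Dnmt1, a median of −0.50 over the S phase genes and of 0.10 over all genes. Like Uhrf1, Hells and 14 of the 19 S phase genes had their lowest siScramble value in replicate 3, as did 6722 of all 19938 genes. Dnmt1 was lowest there too, but by little (7.85 against 7.96 and 8.01).

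**Figure D3:**
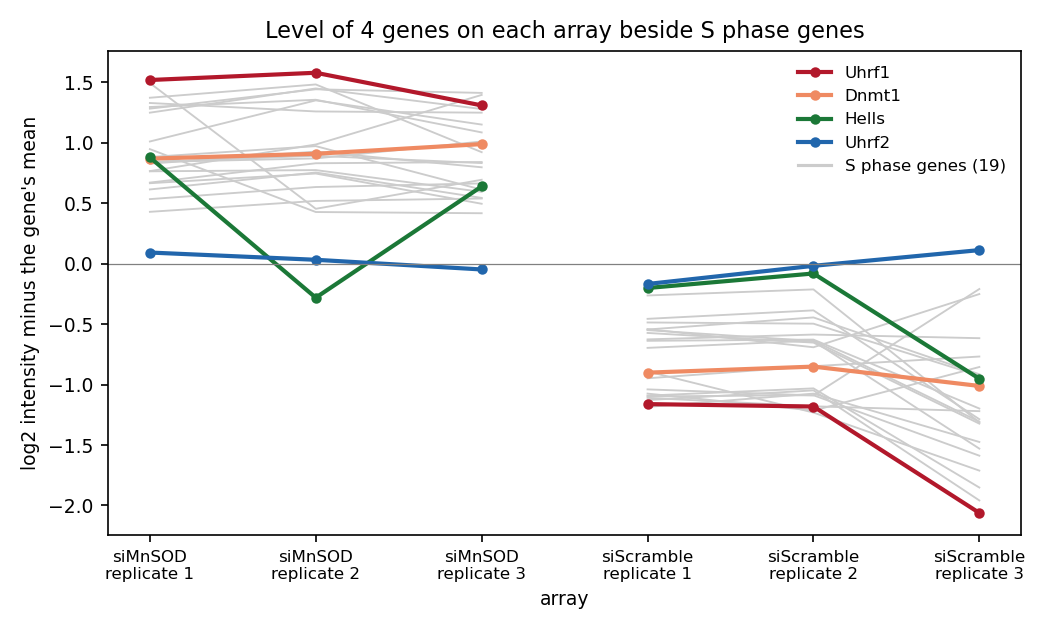
Log2 intensity of Uhrf1, Dnmt1, Hells and Uhrf2 on each of the 6 arrays, as the deviation from the gene's own mean over the arrays (y axis), with 19 S phase genes in grey and lines joined within a group only to guide the eye. Uhrf1 and the S phase genes are high in siMnSOD and low in siScramble, Hells falls back in siMnSOD replicate 2, and Uhrf2 stays near 0.

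The genes whose pattern over the 6 arrays was most like that of Uhrf1, among 8538 named genes with a mean log2 intensity of at least 6, were Bckdk (Pearson r 0.9989), Rrm2 (0.9988), Vsig1 (0.9986), Ppp1r7 (0.9986) and Chaf1b (0.9985). These r values describe 6 arrays that share the group difference. Rrm2, the ribonucleotide reductase subunit made in S phase, read 9.84, 10.04 and 9.87 in siMnSOD, against 7.50, 7.56 and 6.74 in siScramble. Chaf1b, a subunit of the chromatin assembly factor that works at the fork, differed by 2.15, and Bckdk, a kinase of branched-chain amino acid breakdown, by 0.81. All 5 had siScramble replicate 3 as their lowest array, which follows from their choice by likeness to Uhrf1, itself lowest there.

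Several partners of UHRF1 and DNMT1 that work at the fork were higher. Of 18 measured genes 6 were called higher (33.3%, beside 2.17% of all genes) and none lower (1 at an unadjusted p under 0.05 in limma), with a median log2 difference of 0.27. Pclaf, which UHRF1 ubiquitylates to recruit DNMT1, read 9.35, 9.26 and 9.79 in siMnSOD, against 6.28, 6.30 and 6.46 in siScramble. That is a log2 difference of 3.12 (SE 0.16, adjusted p = 0.001 in limma), larger than that of Uhrf1 and the largest rise of any named gene. The DNA ligase gene Lig1, whose methylated product UHRF1 also binds, differed by 2.28 (SE 0.14) and Chaf1a, another chromatin assembly subunit, by 1.95 (SE 0.12), and these 3 calls held whichever array was left out. The clamp gene Pcna (1.14, SE 0.18), Cdca7l (0.95, SE 0.15) and Cdca7 (0.70, SE 0.13), whose product brings HELLS to chromatin, were called too. These 3 lost the call when any array other than siScramble replicate 3 was left out (highest adjusted p 0.13, 0.12 and 0.2). Without siScramble replicate 3 there were 8 calls, with the deacetylase gene Hdac1 (0.47, adjusted p = 0.033) and the histone methyltransferase gene Ehmt2 (0.54, adjusted p = 0.019) added. Higher calls over all 19938 genes rose there too, from 432 to 1119.

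Cdca7 and Hells, whose products form a complex, can be set side by side. Cdca7 read 8.68, 8.77 and 8.56 in siMnSOD, against 8.11, 8.07 and 7.75 in siScramble. Its groups did not overlap, and the low siMnSOD replicate 2 of Hells was not seen in it. Usp7 (−0.05), which stabilizes UHRF1 and DNMT1, and Setdb1 (0.04), a histone methyltransferase, were among the 12 partners not called. Dppa3, an inhibitor of UHRF1 in mouse oocytes, and Dnmt3l, the cofactor of the de novo enzymes in germ cells, lay below background in both groups.

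Among genes of proteins that read methylated CpG and their relatives, none of 7 was called over all 6 arrays (2 higher and 1 lower at an unadjusted p under 0.05 in limma, median −0.17). With 2.17% of all genes called higher and 1.58% lower, a count of 0 among 7 is near those shares. At the unadjusted threshold 1717 of all 19938 genes were higher and 1607 lower. The glycosylase gene Mbd4, which repairs mismatches at methylated sites, read 6.55, 6.13 and 6.43 in siMnSOD, against 5.31, 5.42 and 6.02 in siScramble. Its groups were apart but the difference of 0.79 (SE 0.21) had an adjusted p of 0.11 in limma. It was called higher without siScramble replicate 3 (1.01, adjusted p = 0.011) and with arrays centred on their medians (0.87, adjusted p = 0.049). Mbd3, a subunit of a repressor complex, differed by 0.61 (SE 0.21, adjusted p = 0.2 in limma), and was called with the replicate number as a block (adjusted p = 0.043). The zinc finger readers Zbtb4 (−0.40, SE 0.16) and Zbtb33 (−0.46, SE 0.21) had adjusted p-values of 0.28 and 0.37.

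Genes for the removal of oxidized cytosine and partners of the TET enzymes differed in both directions. Of 17 measured genes 3 were called higher (17.6%, beside 2.17% of all genes) and 2 lower (11.8%, beside 1.58%), with a median of 0.10. With the replicate block 5 were higher and 3 lower. Calls over all 19938 genes rose with the block too, from 432 to 801 higher and from 316 to 623 lower. Idh1, which makes the cofactor of the TET enzymes, read 10.44, 10.46 and 10.12 in siMnSOD, against 9.13, 9.04 and 9.12 in siScramble. The groups were well apart (log2 difference 1.24, SE 0.13, adjusted p = 0.0067 in limma), and the call was lost without siMnSOD replicate 2 (adjusted p = 0.056). The repair genes Parp1 (0.70, SE 0.11) and Xrcc1 (0.63, SE 0.12) rose as well. Both lost the call without any 1 of replicates 1 and 2 of either group (highest adjusted p 0.12 and 0.19), and Xrcc1 also without siMnSOD replicate 3.

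Gadd45a, a stress-induced gene linked to active demethylation and a p53 target, had the larger fall of the 2. It read 8.63, 8.62 and 8.30 in siMnSOD, against 10.82, 10.83 and 9.78 in siScramble. The groups did not overlap, and the difference was −1.96 (SE 0.29, adjusted p = 0.019 in limma), lost as a call without any array other than siScramble replicate 3 (highest adjusted p 0.1). Apobec1, a cytidine deaminase of RNA, was 4.19, 4.08 and 4.70 in siMnSOD, against 5.17, 5.39 and 5.45 in siScramble, close to background (−1.01, SE 0.18, adjusted p = 0.036 in limma, highest 0.16 with an array left out). Ogt, the glycosyltransferase bound by TET proteins, had −0.62 (SE 0.13, adjusted p = 0.06 in limma), and was called lower with the replicate block (adjusted p = 0.043), as Apex1 (0.50, adjusted p = 0.039) and Idh2 (0.66, adjusted p = 0.043) were called higher. With 1 array left out Apex1 was also called without siScramble replicate 3 (0.68, adjusted p = 0.043 in limma) and Idh2 without siMnSOD replicate 3 (0.91, adjusted p = 0.045).

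Supply of the methyl group involved 11 measured genes, of which 2 were called higher (18.2%, beside 2.17% of all genes) and none lower (none at an unadjusted p under 0.05 in limma), with a median of 0.09. They were the folate enzyme genes Mthfd1 (1.06, SE 0.12, adjusted p = 0.009) and Shmt1 (0.88, SE 0.13, adjusted p = 0.02), both in limma. Mthfd1 lost the call without siMnSOD or siScramble replicate 2 (highest adjusted p 0.065), and Shmt1 without any 1 of replicates 1 and 2 of either group (0.11). The count was thus 0 without replicate 2 of either group. Higher calls over all genes fell there too, from 432 to 52 (siMnSOD replicate 2 left out) and 118 (siScramble replicate 2 left out). Mat2b, a regulatory subunit of the enzyme that makes S-adenosylmethionine, read 9.20, 9.20 and 9.37 in siMnSOD, against 8.57, 8.47 and 9.27 in siScramble. The groups overlapped through siScramble replicate 3, and the difference was 0.49 (SE 0.22, adjusted p = 0.34 in limma). Without that array it was 0.74 and Mat2b was called higher (adjusted p = 0.011 in limma).

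Germline genes that DNA methylation keeps silent, and imprinted genes, showed no called change over all 6 arrays. Over all genes 2.17% were called higher and 1.58% lower, so a count of 0 in lists of this size is near those shares. At an unadjusted p under 0.05 in limma 1717 of all 19938 genes were higher and 1607 lower. The imprinted gene Peg3 was called lower once siScramble replicate 3 was left out. Of 19 germline genes of this kind none was called (1 higher and none lower at an unadjusted p under 0.05 in limma), the median difference was 0.03, and 17 lay below background in both groups, among them Dazl, Ddx4 and Sycp3. Tuba3a, a testis tubulin gene, was above background at 5.61, 5.49 and 6.05 in siMnSOD, against 5.25, 5.35 and 5.39 in siScramble. Its difference of 0.39 (SE 0.16) had an adjusted p of 0.3, and other tubulin genes of near-identical sequence could contribute to its signal. Of 13 imprinted genes none was called (none higher and 1 lower at an unadjusted p under 0.05 in limma, median 0.04), and 7 were below background in both groups. Impact (−0.67, SE 0.26, adjusted p = 0.25) and Peg3 (−0.62, SE 0.32, adjusted p = 0.46) had the smallest p-values of the list. Peg3, a paternally expressed zinc finger gene, read 10.43, 10.34 and 10.37 in siMnSOD, against 11.36, 11.43 and 10.19 in siScramble. It was lower in siMnSOD within replicates 1 and 2 and not within replicate 3, so that the groups overlapped. Without siScramble replicate 3 its difference was −1.02 and it was called lower (adjusted p = 0.0028 in limma), as it was with array weights (−0.97, adjusted p = 0.00099) and in replicates 1 and 2 alone (−1.01, adjusted p = 0.0014).

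**Figure D4:**
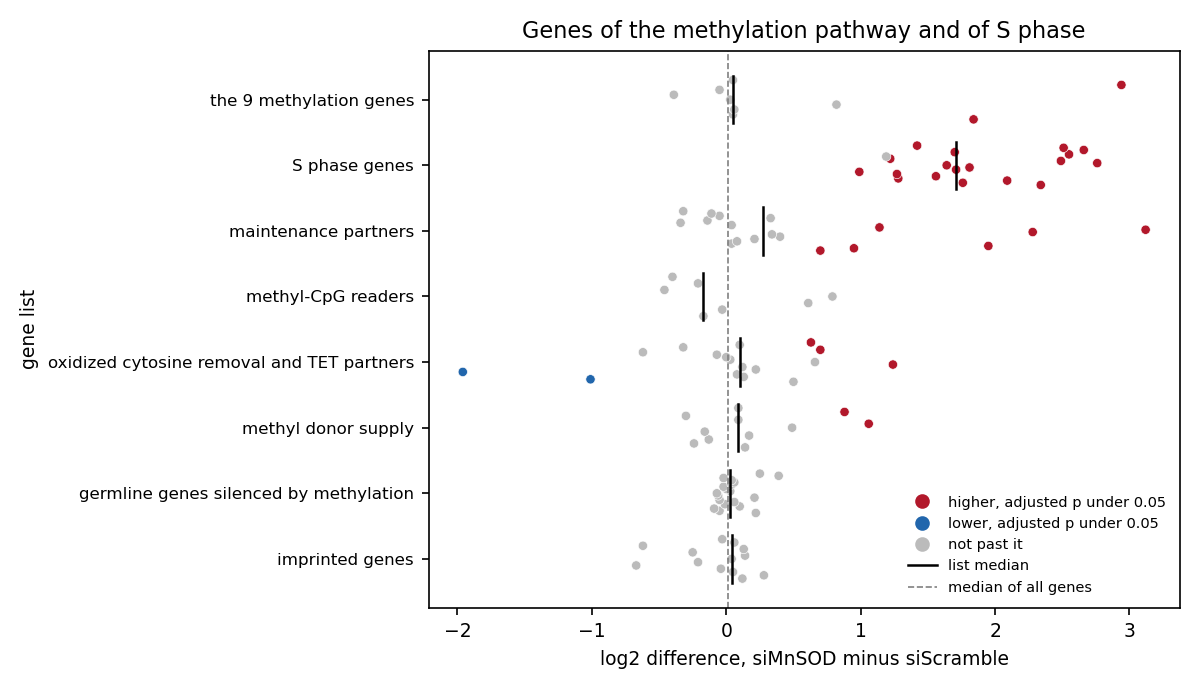
Log2 difference of siMnSOD minus siScramble (x axis) for each measured gene of the 9 methylation genes, the S phase genes and 6 lists of the methylation pathway (rows), with genes called higher in red, called lower in blue and others in grey, and each list's median as a black bar. The S phase median is 1.71, that of the maintenance partners 0.27, and the medians of the other lists lie between −0.17 and 0.10, beside 0.01 over all genes (dashed).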

How the data were processed

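RNA of the 6 cultures was hybridised to Affymetrix Mouse Gene 1.0 ST arrays. The authors deposited normalized intensities on a linear scale, made with RMA per the submitters' processing notes and with MAS5 per the labels' design text. The version is not given in the sources used here. The deposited intensities were all (100%) antilogs of log2 values. Array number limits the precision.

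Of 35557 probe sets, 21789 had 1 symbol in the platform annotation (21698 updated by Entrez identifier through RefSeq, GRCm38.p6). The brightest probe set stood for a gene. With 1621 probe sets of several symbols, tested but not named, 21559 rows entered limma 3.58.1 (R 4.3.3, lmFit and eBayes on log2 intensity, group as the only term) with Benjamini-Hochberg adjustment over all rows, a threshold of 0.05 and no filter on low values. The code was tested on simulated data. Alternatives changed the scaling, probe set rule, rows, prior or weights, added a replicate block or left arrays out.

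The members and lists were chosen with earlier results of these data known. The rule named all 9 genes, Sod2, up to 4 genes per list by smallest p and the 5 genes most like Uhrf1. Other genes named were picked with values in view, to fill out small counts or to show members that were not called. Some genes of the lists were not analysed here and are not reported.

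The numbers 1 to 3 occur in both groups. After subtracting group means, samples with the same number correlated at 0.30, 0.29 and 0.56, each over 0.1. The number was therefore used as a block in an alternative fit and for the differences within replicate numbers. The main fit and the permutation tests did not use it. Replicates 1 and 2 of siMnSOD and siScramble correlated more strongly crosswise (0.47 and 0.41), so the values do not show that equal numbers 1 and 2 are pairs. What a number stands for is not stated in the labels.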

Additional observations from a re-analysis of the deposited data

How the results depend on the processing

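Uhrf1 and Dnmt1 were the members called higher, and no member was called lower, under all 14 alternatives. Over these the log2 difference was 2.64 to 3.09 for Uhrf1 (highest adjusted p 0.038) and 1.77 to 1.93 for Dnmt1 (0.021). With the replicate block their adjusted p was 0.0062 each, and the block changed no other member's call. Hells was not called under any of them (0.44 to 1.17, lowest adjusted p 0.14), nor was Tet2 (−0.52 to −0.19, lowest 0.19). Signs of members with differences near 0 turned: Dnmt3a was −0.13 with array weights and −0.16 in replicates 1 and 2 alone, and Tet3 was 0.04 with arrays centred on their medians. Leaving out 1 array gave −0.02 to 0.12 for Uhrf2, −0.11 to 0.14 for Dnmt3a, −0.01 to 0.14 for Dnmt3b and −0.06 to 0.14 for Tet1. The cause was not tested.

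Sod2 was −1.54 with centring (adjusted p 0.069) and −1.63 with all probe sets tested (0.063), both no longer called, and −1.88 to −1.27 when 1 array was left out. Calls over all genes, 432 higher and 316 lower, became 365 and 140 with centring, 278 and 154 with all probe sets tested, where more rows share the adjustment, 2486 and 2188 with array weights, 801 and 623 with the replicate block, and 2343 and 1932 in replicates 1 and 2 alone, and ranged over 52 to 1119 and 25 to 1119 when 1 array was left out. Higher calls of the maintenance partners were 3 to 8 when 1 array was left out, 9 with array weights and 4 with centring. Dim rows limit Tet1, Dnmt3b, Tet2 and the silent germline genes, and Dnmt3b, Tet1 and Tet2 gave no value when rows under a mean log2 intensity of 6 were left out.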
